A study of Mus musculus with 16 samples.

Results

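The genes described here build the 2 vesicle coats that carry proteins between the endoplasmic reticulum (ER) and the Golgi, together with the receptors that load those vesicles. They are a list of 43 named mouse genes grouped by their known roles, drawn up with earlier results of these data known, and all 43 passed the filter on low counts that kept 15323 of the 45513 genes in the files. The list holds 8 COPII coat genes, 2 GTPases and 5 organisers of COPII assembly, 9 COPI coat genes, 3 ARF GTPases, 14 cargo receptors and 2 ER-Golgi SNAREs. Counts were compared between tdTom+ and tdTom- cells sorted from the proximal small intestine of the same 8 mice, which gave 16 RNA-seq libraries. All mice carried Atoh1(WT)CreERT2, an inducible Cre recombinase placed downstream of the Atoh1 coding sequence in its own locus, and 1 copy of the Rosa26 tdTom reporter, on a C57BL/6 background. They were males and females of 8 to 16 weeks, and per the labels all had received tamoxifen at 1 mg a day on 3 days. Both fractions were live, EpCAM+ cells from crypt-enriched preparations, so tdTom- holds the remaining EpCAM+ cells of those preparations. Each fraction is a mixture of cell types sorted on a reporter and not a pure population.

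COPII vesicles leave the ER. The small GTPase Sar1 is loaded with GTP by Preb (also known as Sec12), inserts into the membrane, and recruits the inner coat of Sec23 and Sec24, in which Sec24 binds cargo. Sec13 and Sec31 form the outer cage, and Sec16 and the Mia proteins (Mia3 is also known as TANGO1) organise the exit site, Mia3 being known for the export of cargo too large for ordinary vesicles. COPI vesicles carry receptors and escaped ER proteins back from the Golgi on a coatomer complex that ARF GTPases recruit. Cargo receptors cycle between both compartments: the p24 proteins (the listed Tmed genes), the KDEL receptors that return resident ER chaperones, the lectins Lman1 and Lman2, the Lman1 partner Mcfd2, and Surf4. In the intestine the pathway serves goblet cells, which export mucin, Paneth cells, which export antimicrobial peptides, and enterocytes, which export lipoproteins in vesicles that use Sar1b.

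Library totals ran from 17116405 to 25323567 counts. Atoh1, the gene behind the label, had 62.5 ± 12.7 CPM (counts per 1000000 counts of the library; SD, n = 8) in tdTom+ and 0.717 ± 0.247 CPM in tdTom-, and Epcam, the sorted surface protein, had 941 ± 56.5 and 1018 ± 53.7 CPM. All 8 goblet, all 8 Paneth and all 8 enteroendocrine marker genes were higher in tdTom+, and all 8 absorptive markers were lower. Of the tuft markers 6 of 7 tested were higher and 1 was lower, with sums of 97.0 to 390.4 CPM in tdTom+ and 24.8 to 140.3 CPM in tdTom-. Of the 8 stem markers 3 were higher, with sums of 1592 to 2806 and 1146 to 2826 CPM. The summed absorptive markers held 1561 to 6014 CPM in tdTom+ and 14533 to 38300 CPM in tdTom-, and the summed goblet markers held 127950 to 263906 and 951 to 1509 CPM. Of 6 tested plasma cell markers, which mark another secretory cell type, 5 were lower in tdTom+ and Derl3 was higher, with sums of 77.1 to 503 CPM in tdTom+ and 492 to 3788 CPM in tdTom-. The 8 T cell markers summed to 5.95 to 28.9 and 10.6 to 148 CPM, with 6 of the 8 lower in tdTom+. Stromal markers went the other way, with sums of 20.2 to 46.8 CPM in tdTom+ and 4.69 to 9.29 CPM in tdTom-. Of the 4 tested, Vim (23.4 ± 8.17 and 2.29 ± 1.14 CPM) and Pdgfrb were higher and 2 did not pass the test. Col1a1, Col1a2, Col3a1 and Dcn had at most 6 counts in any library and were not tested. The tdTom- library of mouse 7 stood apart, with the lowest absorptive sum (14533 CPM against 24793 to 38300 CPM in the other 7) and the highest plasma cell sum (3788 against 492 to 1463 CPM). The part of these cell-type differences in the results was not tested, and in bulk libraries fewer cells of a type and less RNA per cell cannot be told apart.

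In this list COPII coat genes were mostly lower in tdTom+ and the 14 cargo receptor genes mostly higher, while most COPI coat genes did not pass the test. By edgeR's quasi-likelihood test with the mouse as a block, at a Benjamini-Hochberg adjusted p under 0.01 over all genes tested, 14 of the 43 genes were higher in tdTom+ and 15 were lower. Of all genes tested, 25.8% were higher and 30% were lower, so the list as a whole, with 32.6% higher and 34.9% lower and a median log2 fold change of -0.02 against 0.02 over all genes, stood close to that background. Its classes did not share 1 pattern. Among the COPII coat genes 6 of 8 were lower and 1 was higher (median log2 fold change -0.61). Among the COPI coat genes 7 of 9 did not pass the test (median -0.02). Among the cargo receptors 8 of 14 were higher and 3 were lower (median 0.60). Receptor genes outside the list did not share this: of 16 tested, 4 were higher and 7 lower (median -0.07). The tdTom+ libraries all lay above the tdTom- libraries for 11 of the 43 genes, where 14.6% of all genes did so, and all lay below for 8, where 17% of all genes did so. Changes of at least 1 on the log2 scale were passed upward by 5 genes, Copz2, Tmed6, Kdelr3, Tmed3 and Tmed9 (11.4% of all genes), and downward by 3, Sec23a, Sec16b and Sar1b (11.5% of all genes).

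**Figure D1:**
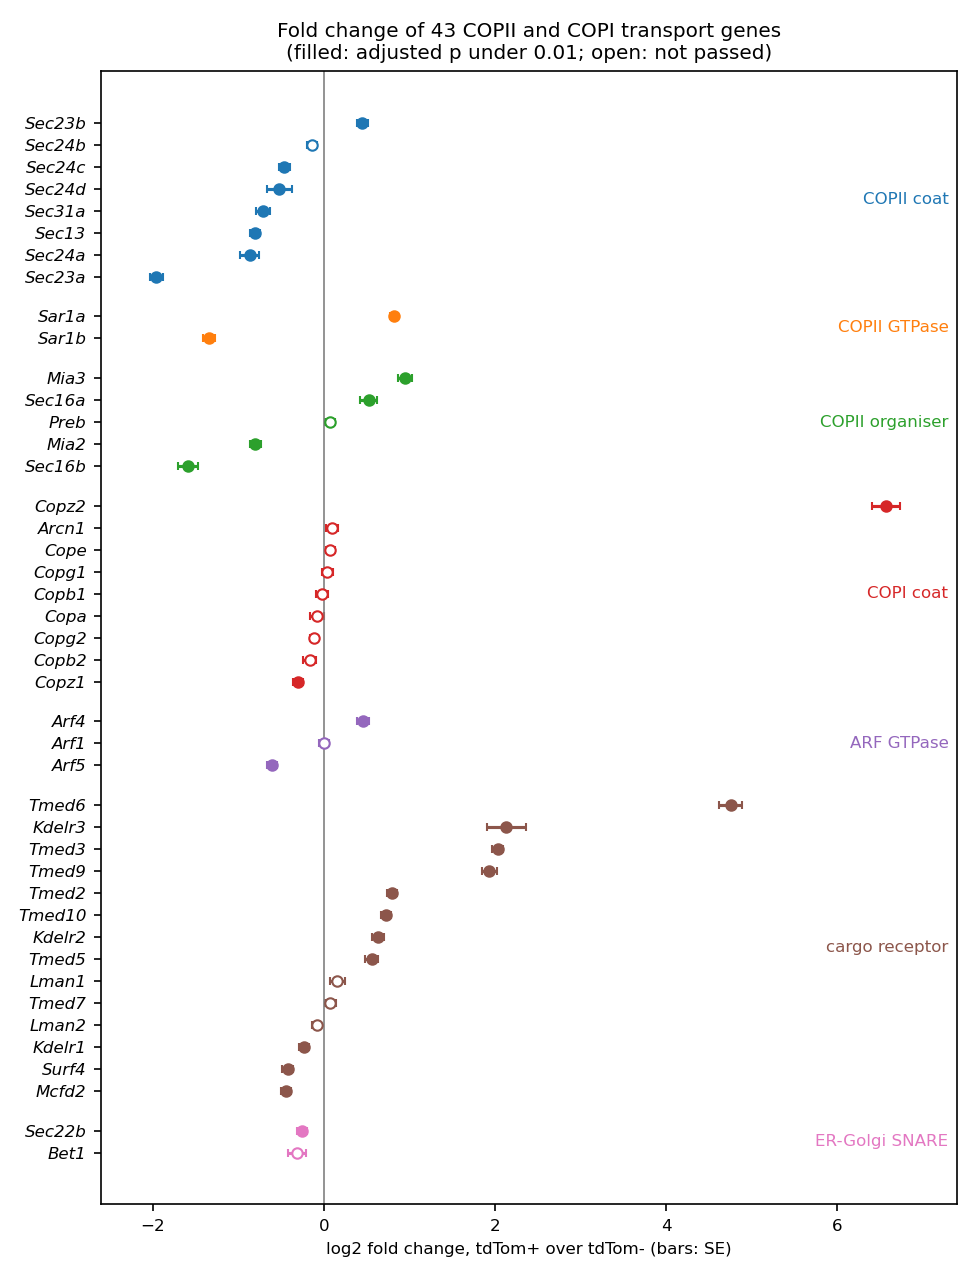
Log2 fold change of each of the 43 genes in tdTom+ over tdTom- (x axis; points with SE bars from edgeR, 8 mice), grouped by class on the y axis. Filled points had an adjusted p under 0.01. The COPII coat sits mostly left of 0, and the cargo receptors mostly right of 0, up to Tmed6 at 4.76. The COPI coat lies near 0 except Copz2 at 6.57, with Copz1 filled at -0.30.

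Among transcripts of the inner COPII coat, the balance of the Sec23 paralogs differed between fractions. Sec23a (chromosome 12, 58958383 to 59012017, GRCm38) is the GTPase-activating subunit that stimulates Sar1. It had 44.1 CPM in the lowest, 71.1 in the median and 84.5 in the highest tdTom+ library, and 155, 293 and 328 CPM in tdTom-. No library of one fraction reached those of the other, and the log2 fold change was -1.95 ± 0.07 (SE, edgeR adjusted p = 4.13e-11), a 3.88-fold lower level. Sec23b (chromosome 2, 144556229 to 144590749), whose protein occupies the same place in the coat, had 80.8, 108 and 119 CPM in tdTom+ and 69.9, 72.9 and 90.6 CPM in tdTom-. It was higher in tdTom+ in all 8 mice by 0.45 ± 0.06 (edgeR adjusted p = 1.91e-05), although the ranges of both fractions overlapped.

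Counts per kilobase of exon put both paralogs on 1 scale within each library. Sec23b made up 54.0% ± 6.38 (SD, n = 8) of the Sec23 counts per kilobase in tdTom+ and 18.4% ± 3.56 in tdTom-. The log2 ratio of Sec23b over Sec23a rose from -2.17 ± 0.33 to 0.24 ± 0.37, a difference of 2.41 ± 0.22 (SD of the 8 within-mouse differences) that lay between 2.07 and 2.63 in every mouse. Exact sign flips of the 8 within-mouse differences (two-sided) gave p = 0.0078125, the smallest that 8 pairs allow, and an adjusted p of 0.00987 over the 24 paralog ratios and shares computed. Both paralogs together held 30.8 ± 2.68 RPKM (CPM divided by the kilobases of exon) in tdTom+ and 67.7 ± 12.9 RPKM in tdTom-, so the Sec23 sum was lower while its makeup moved to Sec23b.

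The 4 Sec24 genes, which encode the cargo-binding subunits, included 3 that were lower in tdTom+. Sec24a had 70.2, 85.6 and 102 CPM in the lowest, median and highest tdTom+ library and 84.1, 171 and 208 CPM in tdTom-, and fell in all 8 mice by 0.86 ± 0.11 on the log2 scale (edgeR adjusted p = 9.65e-06). Sec24c had 148, 163 and 174 CPM in tdTom+ and 172, 236 and 249 CPM in tdTom- (log2 fold change -0.46 ± 0.06, edgeR adjusted p = 2.18e-05). For both genes the lowest tdTom- library fell inside the tdTom+ range. Sec24d had 131, 162 and 205 CPM in tdTom+ and 113, 257 and 311 CPM in tdTom- (log2 fold change -0.52 ± 0.14, edgeR adjusted p = 0.00598). It was lower in only 6 of 8 mice, its lowest tdTom- value was that of mouse 7, and the call was lost without any 1 of mice 1 to 6, with edgeR adjusted p-values of 0.0140 to 0.0426. Sec24b had 35.6, 41.7 and 44.1 CPM in tdTom+ and 41.2, 45.4 and 49.2 CPM in tdTom-, and did not pass the test (-0.13 ± 0.06, edgeR adjusted p = 0.0558).

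As shares of the Sec24 counts per kilobase, Sec24c stood at 47.4% ± 2.25 in tdTom+ and 46.1% ± 4.15 in tdTom-, and Sec24d at 33.2% ± 2.13 and 33.6% ± 4.27. Neither share differed beyond the spread between mice (exact sign-flip p = 0.414 and 0.797, within-mouse differences of -6.64 to 6.88 and of -5.69 to 8.81 percentage points). Sec24a took a smaller share in tdTom+, 10.3% ± 0.658 against 13.2% ± 1.29 (exact sign-flip adjusted p = 0.00987, lower in 8 of 8 mice), and Sec24b a larger one, 9.02% ± 0.585 against 7.05% ± 1.31 (exact sign-flip adjusted p = 0.0187, higher in 7 of 8 mice). Sec24a and Sec24b bind similar cargo signals, as do Sec24c and Sec24d. The log2 ratio of the second pair over the first moved by only 0.086 ± 0.071 (exact sign-flip adjusted p = 0.0268, higher in 7 of 8 mice), beside the shift of 2.41 between the Sec23 paralogs. That small difference missed the threshold of 0.05 without any 1 of mice 1 to 5 or mouse 7 (exact sign-flip adjusted p = 0.0536 each). With 1 pair fewer the sign-flip test has coarser steps and a larger smallest p, so this loss does not single out a mouse. The difference itself stayed at 0.070 to 0.10 with each mouse left out.

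Both genes of the outer cage were lower as well. Sec13 had 98.1, 111 and 121 CPM in the lowest, median and highest tdTom+ library and 168, 192 and 220 CPM in tdTom- (log2 fold change -0.81 ± 0.06, edgeR adjusted p = 2.09e-08). Sec31a had 251, 275 and 314 CPM against 315, 489 and 524 CPM (-0.71 ± 0.08, edgeR adjusted p = 5.49e-06). Neither gene had a tdTom+ library that reached the tdTom- range, although the nearest libraries for Sec31a held 314 and 315 CPM. Summed over all 8 coat genes, COPII held 927 to 1134 CPM in tdTom+ and 1120 to 1922 CPM in tdTom-.

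The Sar1 GTPase pair shifted as well. Sar1a (chromosome 10, 61680310 to 61693295) had 83.0, 102 and 114 CPM in the lowest, median and highest tdTom+ library and 51.4, 56.5 and 60.4 CPM in tdTom-. Sar1b (chromosome 11, 51763687 to 51791925), the paralog tied to lipoprotein export, had 42.98, 51.3 and 62.9 CPM in tdTom+ and 96.4, 136 and 151 CPM in tdTom-. Neither gene overlapped between fractions, and they moved in opposite directions, by 0.82 ± 0.05 (edgeR adjusted p = 5.69e-09) and by -1.34 ± 0.07 (edgeR adjusted p = 5.20e-10) on the log2 scale. Sar1b held 51.7% ± 5.50 of the Sar1 counts per kilobase in tdTom+ and 82.7% ± 2.62 in tdTom-. The log2 ratio of Sar1b over Sar1a differed by -2.16 ± 0.24, with the same sign in 8 of 8 mice (exact sign-flip adjusted p = 0.00987). Sar1b starts 52 bases from Sec24a, which runs the other way on the opposite strand, and both genes of this head-to-head pair were lower in tdTom+. Together the Sar1 genes held 79.8 ± 4.26 RPKM in tdTom+ and 126 ± 12.4 RPKM in tdTom-.

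The organisers of ER exit sites split by paralog as well. Mia3 (chromosome 1, 183326725 to 183369553) had 123, 156 and 182 CPM in the lowest, median and highest tdTom+ library and 57.0, 84.3 and 92.2 CPM in tdTom- (log2 fold change 0.95 ± 0.08, edgeR adjusted p = 2.97e-07). Sec16b (chromosome 1, 157506728 to 157568425), the shorter Sec16 scaffold, had 40.2, 44.5 and 61.8 CPM in tdTom+ and 64.2, 163 and 190 CPM in tdTom- (-1.59 ± 0.12, edgeR adjusted p = 6.03e-08). Neither gene overlapped between fractions. Their paralogs moved the other way: Sec16a, the long scaffold, was higher by 0.53 ± 0.10 (edgeR adjusted p = 0.000399), and Mia2 was lower by 0.80 ± 0.07 (edgeR adjusted p = 2.05e-07). The Mia2 locus also gives rise to shorter transcripts known as cTAGE5, which gene-level counts do not separate. Preb, which loads Sar1 with GTP, did not pass the test (0.07 ± 0.06, edgeR adjusted p = 0.311), with 109 to 146 CPM in tdTom+ and 90.1 to 127 CPM in tdTom-.

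Within each library Sec16b held 31.3% ± 4.82 of the Sec16 counts per kilobase in tdTom+ and 65.9% ± 5.41 in tdTom-, and Mia2 held 25.8% ± 3.39 of the Mia counts per kilobase in tdTom+ and 53.7% ± 1.14 in tdTom-. The log2 ratios differed by -2.11 ± 0.26 for Sec16b over Sec16a and by -1.75 ± 0.21 for Mia2 over Mia3, each with the same sign in 8 of 8 mice (exact sign-flip adjusted p = 0.00987). For Sec23, Sar1, Sec16 and Mia alike, the ratios of the tdTom+ and tdTom- libraries did not overlap. A ratio within a library does not depend on how libraries are scaled to each other.

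**Figure D2:**
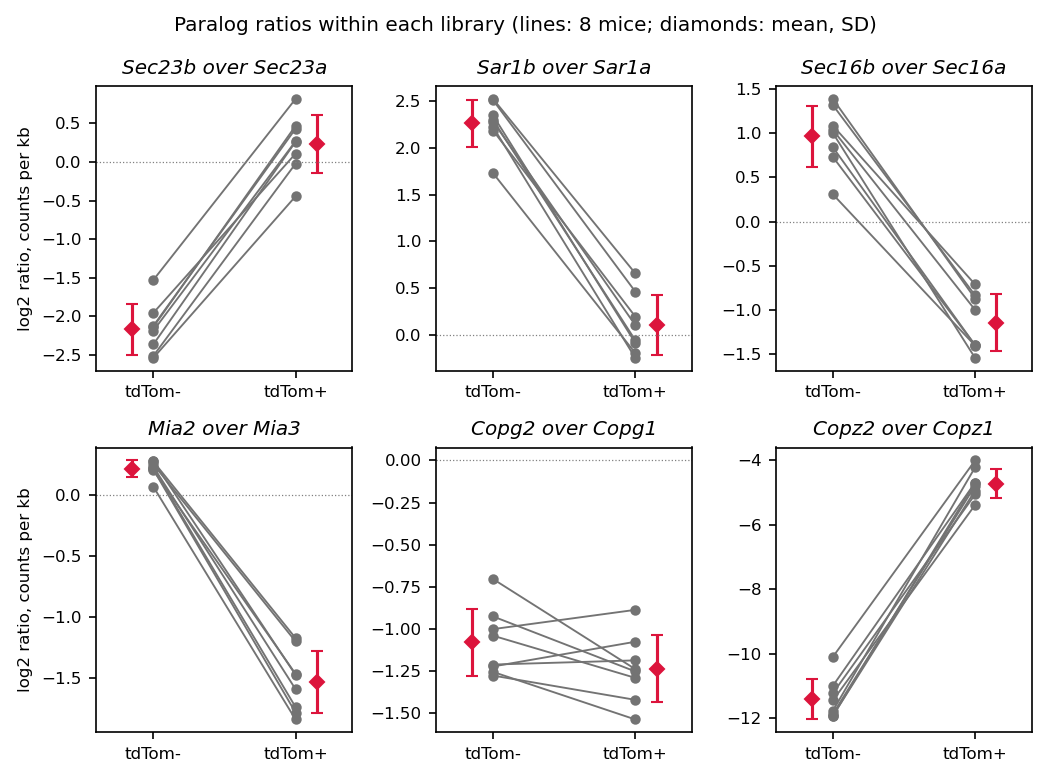
Log2 ratio of counts per kilobase between paralogs in each library (y axis), with a line for each of the 8 mice from tdTom- to tdTom+ (x axis) and red diamonds for the mean with SD. All 8 lines run the same way for Sec23, Sar1, Sec16, Mia and Copz, while for Copg 3 rise and 5 fall.

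Most of the COPI coat did not pass the test, with Copz1 and Copz2 as the exceptions. Copa, Copb1, Copb2, Copg1, Copg2, Arcn1 and Cope, which encode the alpha, beta, beta prime, both gamma, delta and epsilon subunits, had log2 fold changes of -0.17 to 0.10, with SEs of 0.05 to 0.08, and did not pass the edgeR test at an adjusted p under 0.01 (the smallest adjusted p was 0.0461, for Copg2). Arcn1, with the largest log2 fold change of these, had 269, 305 and 331 CPM in the lowest, median and highest tdTom+ library and 235, 280 and 318 CPM in tdTom- (0.10 ± 0.07, edgeR adjusted p = 0.228). The signs of Copa, Copb1, Copg1 and Copg2 turned under at least 1 other scaling or filter, so no direction is given for them. Copz1, which encodes the common zeta subunit, had 153, 170 and 180.5 CPM in tdTom+ and 170, 211 and 241 CPM in tdTom- (-0.30 ± 0.06, edgeR adjusted p = 0.000413), lower in 8 of 8 mice with overlapping ranges. The call for Copz1 was lost without mouse 3 (-0.19, edgeR adjusted p = 0.0234).

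Copz2, the other zeta gene, was named after its values were seen, since its mean of 8.57 CPM in tdTom+ lies under the 10 CPM asked of other genes given in full. It had 5.58, 8.12 and 12.9 CPM in the lowest, median and highest tdTom+ library (114 to 258 counts) and 0.0483, 0.0682 and 0.182 CPM in tdTom- (1 to 4 counts). The fractions did not overlap, and the fitted log2 fold change was 6.57 ± 0.17 (edgeR adjusted p = 1.23e-12). The pooled counts were 1400 in tdTom+ and 14 in tdTom-. Scaled to the library totals used for CPM, their ratio was 101, with a 95% interval of 60.2 to 186 that covers counting error only. Copz2 nevertheless held 3.75% ± 1.15 of the zeta counts per kilobase in tdTom+, so Copz1 supplied the bulk of the zeta transcripts in both fractions. The other paralog pair of the coat did not pass the test: the log2 ratio of Copg2 over Copg1 differed by -0.16 ± 0.24, within a range of -0.54 to 0.15 over the mice (exact sign-flip p = 0.117). Summed over its 9 genes the COPI coat held 1513 to 1850 CPM in tdTom+ and 1412 to 1965 CPM in tdTom-.

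The ARF GTPases that recruit COPI also moved in different directions. Arf4 had 262, 323 and 349 CPM in the lowest, median and highest tdTom+ library and 202, 225 and 255 CPM in tdTom- (log2 fold change 0.46 ± 0.07, edgeR adjusted p = 3.26e-05). Arf5 had 92.5, 103 and 115 CPM in tdTom+ and 130, 153 and 189 CPM in tdTom- (-0.60 ± 0.06, edgeR adjusted p = 6.29e-07). Neither overlapped between fractions. Arf1, the most abundant member of the whole list per kilobase at 224 ± 18.3 RPKM in tdTom+ and 223 ± 13.0 RPKM in tdTom-, did not pass the test (0.01 ± 0.06, edgeR adjusted p = 0.941). Arf4 rose from 18.2% ± 1.09 to 26.0% ± 1.73 of the counts per kilobase of these 3 genes and Arf5 fell from 31.3% ± 1.72 to 21.4% ± 1.45 (exact sign-flip adjusted p = 0.00987 for each, with the same sign in 8 of 8 mice).

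The p24 family held the largest increase among the cargo receptors. Tmed6 (chromosome 8, 107061484 to 107065644), a p24 gamma protein, had 19.7, 31.9 and 51.0 CPM in the lowest, median and highest tdTom+ library and 0.703, 1.18 and 1.78 CPM in tdTom- (log2 fold change 4.76 ± 0.14, edgeR adjusted p = 3.59e-12). Tmed3 (chromosome 9, 89699205 to 89705068), also of the gamma subfamily, had 82.7, 106 and 112 CPM in tdTom+ and 23.3, 24.8 and 27.4 CPM in tdTom- (2.03 ± 0.07, edgeR adjusted p = 1.01e-11). Tmed9 (chromosome 13, 55593135 to 55597663), an alpha subfamily member, had 94.0, 116 and 135 CPM in tdTom+ and 24.9, 27.9 and 47.2 CPM in tdTom- (1.93 ± 0.08, edgeR adjusted p = 1.54e-10). The fractions did not overlap for any of the 3 genes, and the differences were 27.0-fold, 4.09-fold and 3.83-fold.

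Tmed2 and Tmed10, the listed p24 genes with the highest CPM in both fractions, rose by less. Tmed2, the only beta subfamily member, had 318, 382 and 409 CPM in tdTom+ and 193, 210 and 248 CPM in tdTom- (0.80 ± 0.06, edgeR adjusted p = 3.69e-08). Tmed10, the only delta member, had 246, 268 and 301 CPM in tdTom+ and 146, 159 and 187 CPM in tdTom- (0.73 ± 0.06, edgeR adjusted p = 8.04e-08). Both genes were without overlap. Tmed5 had 20.2, 24.2 and 28.8 CPM in tdTom+ and 12.1, 16.1 and 26.9 CPM in tdTom-, with overlap through the tdTom- library of mouse 7 (0.56 ± 0.07, edgeR adjusted p = 1.58e-05). Tmed7 had 142, 155 and 180 CPM in tdTom+ and 129, 150 and 163 CPM in tdTom- and did not pass the test (0.08 ± 0.06, edgeR adjusted p = 0.307). Of the exon bases of Tmed7, 9.48% also belong to another gene on the same strand, where reads could not be assigned.

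The makeup of the 7 listed p24 genes changed with their summed level. Together they held 403 ± 36.2 RPKM in tdTom+ and 182 ± 15.8 RPKM in tdTom-, from 333 to 438 and from 163 to 215 RPKM. Other Tmed genes lie outside the list and are not in these sums or shares. Among them Tmed4, named after its values were seen, was lower, with 51.8 ± 3.31 RPKM in tdTom+ and 80.0 ± 13.4 RPKM in tdTom-. Tmed8 was higher and Tmed1 did not pass the test. Of the 7, Tmed2 led in both fractions, but its share of their counts per kilobase went from 46.8% ± 0.956 in tdTom- to 36.9% ± 1.12 in tdTom+. Tmed10, second of the 7 in tdTom-, went from 25.4% ± 0.895 to 19.1% ± 1.22. Tmed9 went from 11.7% ± 1.75 to 20.2% ± 0.974, which put it level with Tmed10 in tdTom+, where their SD ranges overlap. Tmed6 went from 0.773% ± 0.189 to 9.67% ± 2.38 and Tmed3 from 4.83% ± 0.449 to 8.92% ± 0.447. Tmed7 went from 9.30% ± 1.04 to 4.42% ± 0.352 and Tmed5 from 1.20% ± 0.205 to 0.797% ± 0.053. All 7 shares had the same sign in 8 of 8 mice and did not overlap between fractions (exact sign-flip adjusted p = 0.00987 each). Shares of 1 family sum to 100%, so these 7 tests are not independent.

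The KDEL receptors also shifted in makeup. Kdelr3 (chromosome 15, 79516408 to 79527739) had 33.0, 46.4 and 62.6 CPM in the lowest, median and highest tdTom+ library and 4.05, 10.7 and 20.8 CPM in tdTom- (log2 fold change 2.13 ± 0.22, edgeR adjusted p = 1.57e-06). Kdelr2 was higher by 0.63 ± 0.07 (edgeR adjusted p = 3.78e-06), also without overlap, and Kdelr1 was lower by 0.23 ± 0.05 (edgeR adjusted p = 0.00176) with overlapping ranges. The call for Kdelr1 was lost without mouse 3 (-0.12, edgeR adjusted p = 0.104). Kdelr1 fell from 44.4% ± 2.15 to 28.3% ± 2.28 of the KDEL receptor counts per kilobase, while Kdelr2 rose from 51.7% ± 0.901 to 59.8% ± 1.16 and Kdelr3 from 3.88% ± 1.88 to 11.9% ± 1.59 (exact sign-flip adjusted p = 0.00987 each, with the same sign in 8 of 8 mice).

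**Figure D3:**
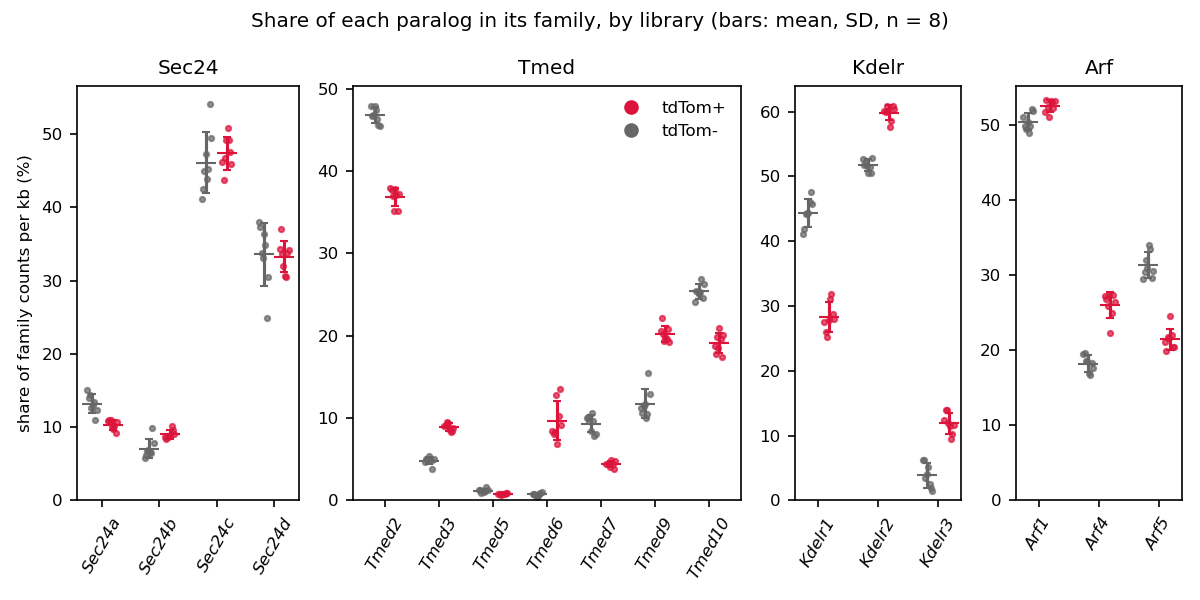
Share of each gene in the counts per kilobase of the listed genes of its family (y axis, percent) for Sec24, Tmed, Kdelr and Arf. Dots mark each of the 8 libraries of tdTom- (grey) and tdTom+ (red), and bars the mean and SD. The Sec24 shares overlap, while the 2 fractions separate for all 7 Tmed and all 3 Kdelr genes.

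Of the receptors for glycoproteins and other soluble cargo, 2 were lower in tdTom+ and 2 did not pass the test. Mcfd2, which works with Lman1, had 94.0, 103 and 114 CPM in the lowest, median and highest tdTom+ library and 108, 145 and 163 CPM in tdTom- (log2 fold change -0.44 ± 0.06, edgeR adjusted p = 2.93e-05). Surf4, known as a receptor for lipoproteins among other cargo, had 358 to 420 CPM in tdTom+ and 432 to 610 CPM in tdTom-, without overlap (-0.42 ± 0.07, edgeR adjusted p = 7.95e-05). Lman1 had 109 to 167 and 94.8 to 159 CPM (0.16 ± 0.09, edgeR adjusted p = 0.134) and Lman2 had 186 to 225 and 203 to 220 CPM (-0.08 ± 0.05, edgeR adjusted p = 0.156), and neither passed the test. Summed over all 14 receptors the class held 2147 to 2634 CPM in tdTom+ and 1840 to 2130 CPM in tdTom-.

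Of the SNAREs, which fuse vesicles with their target membrane, Sec22b had 60.7, 69.6 and 81.6 CPM in the lowest, median and highest tdTom+ library and 64.8, 85.6 and 95.9 CPM in tdTom- (log2 fold change -0.25 ± 0.06, edgeR adjusted p = 0.00185). That call was lost without mouse 3 (-0.14, edgeR adjusted p = 0.0843) and without the mouse as a block (-0.25, edgeR adjusted p = 0.0177). Bet1 had 30.8, 38.6 and 43.2 CPM in tdTom+ and 29.7, 52.3 and 58.4 CPM in tdTom- and did not pass the test (-0.31 ± 0.10, edgeR adjusted p = 0.0165). Without mouse 7 it passed (-0.39, edgeR adjusted p = 0.00119). With TMM library factors taken without the 10 most counted genes, Sec24d, Kdelr1 and Sec22b no longer passed (edgeR adjusted p = 0.0213, 0.0511 and 0.0424), and with at least 10 counts asked of every library neither they nor Copz1 passed (edgeR adjusted p = 0.0263, 0.0748, 0.0620 and 0.0128). Without mouse 7, 14 of the 43 genes were higher and 16 lower, against 14 and 15 with all mice.

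**Figure D4:**
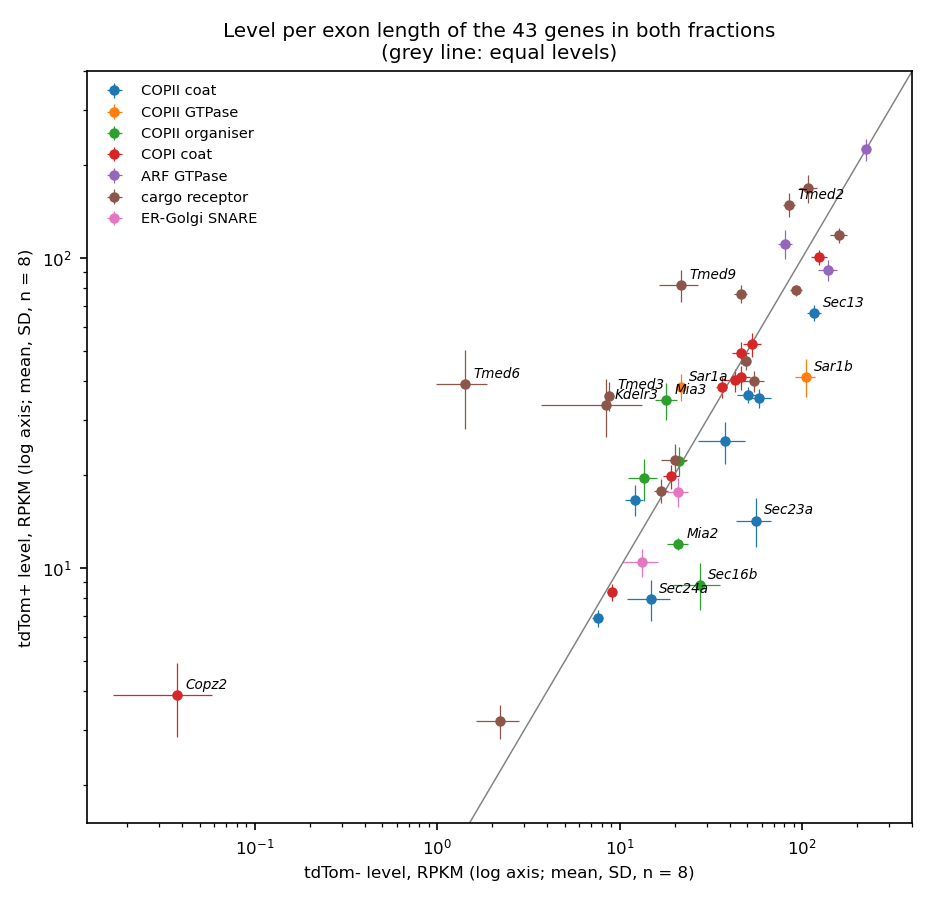
Level of each of the 43 genes in tdTom- (x axis) and tdTom+ (y axis), in RPKM on log axes, as mean with SD over 8 libraries and coloured by class. The grey line marks equal levels. Copz2, Tmed6, Kdelr3, Tmed3 and Tmed9 lie well above it, and Sec23a, Sec16b and Sar1b below it.

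A further list of 93 genes, made of other genes of the ER-Golgi step and 10 transcription factors, gave a similar mixture. Of these 93 genes, 89 were tested, 28 were higher in tdTom+ (31.5%) and 25 lower (28.1%), against the 25.8% and 30% of all genes. The 3 largest increases belonged to transcription factors known to act on secretory genes: Bhlha15 (also known as Mist1) at 62.5 ± 16.4 and 1.23 ± 0.458 CPM (5.66 ± 0.15), Creb3l4 at 70.1 ± 7.89 and 1.98 ± 0.367 CPM (5.14 ± 0.10) and Creb3l1 at 153 ± 20.3 and 4.57 ± 0.806 CPM (5.07 ± 0.10). They were followed by Ergic1, a protein that cycles with the vesicles (2.17 ± 0.08), and the SNARE Stx17 (1.92 ± 0.07). The largest decrease was in a relative of the Creb3l genes, Creb3l3, at 49.1 ± 17.6 and 475 ± 137 CPM (-3.29 ± 0.10). It was followed by Sec22c (-1.50 ± 0.10), by Tfg (-1.49 ± 0.07), which helps to organise ER exit sites, by Pdcd6 (-1.07 ± 0.05), which binds Sec31a, and by the cargo receptor Cnih4 (-1.05 ± 0.06). All 10 genes had edgeR adjusted p-values of at most 8.43e-09. Among 10 tethers and golgins 7 were higher and 3 did not pass the test (median log2 fold change 0.35), and among 14 subunits of the TRAPP tether 6 were lower and 8 did not pass (median -0.18). Other cargo receptors, 16 of them tested, had 4 higher, 7 lower and 5 that did not pass (median -0.07), unlike the 14 listed receptors. Of 10 transcription factors in the list 7 were higher and 2 lower.

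Promoter sequences of the members were read for short elements that transcription factors are known to bind. RefSeq promoters on GRCm38.p6, which run from 250 bases before to 50 bases after a start site, were found for 38 of the 43 genes and gave 44 promoters. Kdelr2, Tmed2, Arcn1, Tmed7 and Lman1 had no entry. The element TGACGTG, known as the unfolded protein response element (UPRE) and bound by XBP1 and ATF6, was searched on both strands and stood in 9 promoters of 8 genes, or 20.5% of the 44 promoters. It stood in 2.01% of all 32851 promoters and in 2.86% of the 12967 promoters of genes tested here. The 8 sites are shown because the genes that hold them went both ways: Mia3 and Kdelr3 were higher in tdTom+, Sec23a, Sec16b and Sec24d were lower, and Arf1, Copb1 and Copb2 did not pass the test. Each window is 30 bases on the strand of the gene, with the element in capitals, read as CACGTCA where it lies on the opposite strand.
Mia3, chr1:183369633-183369662, minus strand: tgagcccttgcTGACGTGtcactcgcagca
Kdelr3, chr15:79516368-79516397, plus strand: ggccgccccgcCACGTCAccgcgcggccaa
Sec23a, chr12:59011993-59012022, minus strand: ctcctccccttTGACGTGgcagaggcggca
Sec16b, chr1:157506741-157506770, plus strand: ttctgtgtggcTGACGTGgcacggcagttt
Sec24d, chr3:123267459-123267488, plus strand: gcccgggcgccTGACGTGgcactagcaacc
Arf1, chr11:59228228-59228257, minus strand: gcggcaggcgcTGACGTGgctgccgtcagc
Copb1, chr7:114254689-114254718, minus strand: ccgcccccttcCACGTCAgccaaggacttg
Copb2, chr9:98563714-98563743, plus strand: cccggaagttcCACGTCAgtgggttggccg

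The element began 6 bases after the start site in Sec23a and 6 to 86 bases before it in the other genes, except that Arf1 has another start site that lies 21 bases before the element. In 7 of the 8 genes, all but Mia3, a further G followed, which gives TGACGTGG. This longer form was chosen after the sites were seen, and it stood in 18.2% of the 44 promoters, in 0.676% of all promoters and in 0.956% of those of tested genes. The related element TGACGTCA, which shares the first 6 letters TGACGT and is known as the cAMP response element, stood in 1 member promoter, that of Cope. This is 2.27% of the 44, against 1.79% of all promoters and 3.01% of those of tested genes. The ER stress response element, which is CCAAT and CCACG separated by 9 bases, stood in 0 of the 44 promoters and in 0.119% of all, and its shorter form in 0 and in 0.0365%. The E-box CAGCTG, which ATOH1 can bind, stood in the promoters of Bet1, Copz1, Sec16b and Sec24a, or 9.09% of the 44, against 16.3% of all and 15.3% of those of tested genes. In Sec24a it lay 3 bases before a start site inside the gene (window chr11:51756820-51756849), and not at the end beside Sar1b (51763634). These are matches of letters in a short window, and binding was not measured.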

How the data were processed

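RNA-seq counts were analysed for the tdTom+ and tdTom- fractions of 8 mice. The authors aligned single-end reads of 50 bases to GRCm38 with TopHat2 2.1.1 and deposited raw counts per gene, made by featureCounts (version 1.5.0-p1 per the file headers, Subread 1.5.2 per the labels) from primary alignments on the reverse strand over the exons of each gene. Multi-mapping reads can be lost or misplaced between close paralogs.

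The deposited counts were tested with edgeR 4.0.16 (R 4.3.3; filterByExpr, TMM factors, quasi-likelihood F-test), with the mouse as a block, and p-values were adjusted over all 15323 genes tested at 0.01. Both fractions came from each mouse and share its number. Same-numbered libraries deviated together, with correlations of 0.245 to 0.634 against a mean of -0.0569 between different numbers. CPM used TMM-scaled totals, RPKM the union of exons. Paralog ratios (0.5 added to each count) and shares were tested with exact two-sided sign flips over 256 patterns, adjusted over all 24 at 0.05. The scripts were tested on simulated data. The 43 genes, the other lists and the motifs were chosen with earlier results of these data known, so no list is independent evidence. Values per library were given for the Sec23, Sec24, Sar1 and Tmed genes and, per class, for the largest and smallest fold change at 10 CPM or more, and 5 pathway genes were named in each direction. Alternatives were other scalings, filters, tools (DESeq2 1.42.0, limma 3.58.1), thresholds and each mouse left out. Floors and intervals cover counting error only, and a count of 3 corresponds to 0.123 to 0.191 CPM.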

Additional observations from a re-analysis of the deposited data

Results flagged for a closer look

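In 10 of 134 sets of 8 values examined, the value at one end lay farther from its neighbour than Dixon's 95% limit allows, where chance alone would give about 6.7 sets. Of the 10, 6 concerned the tdTom- library of mouse 7. In that library Copz2 (0.182 CPM against 0.0483 to 0.108 in the other 7, a gap of 0.551 of the whole range, at only 1 to 4 counts a library), Tmed5 (26.9 against 12.1 to 18.3 CPM, gap 0.582) and Tmed9 (47.2 against 24.9 to 35.3 CPM, gap 0.535) were highest. Preb (90.1 against 112 to 127 CPM, gap 0.598), the log2 ratio of Sar1b over Sar1a (1.73 against 2.19 to 2.53, gap 0.575) and the Tmed3 share of the listed Tmed genes (3.85% against 4.64 to 5.34%, gap 0.5263) were lowest there. The Tmed9 and Tmed5 values of this library lay toward the tdTom+ level, and without mouse 7 their log2 fold changes were 2.01 and 0.63. The library had the highest plasma cell and lowest absorptive marker sums, and their part in these values was not tested.

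In the tdTom+ library of mouse 5, Sec24b was lowest (35.6 against 40.5 to 44.1 CPM, gap 0.572), as was the Arf4 share (22.3% against 25.0 to 27.3%, gap 0.533), and the Arf5 share was highest (24.5% against 19.8 to 22.0%, gap 0.536). In the tdTom- library of mouse 3 the log2 ratio of Mia2 over Mia3 was lowest (0.067 against 0.20 to 0.27, gap 0.646).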

How the results depend on the processing

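Of the 43 genes, 30 kept their direction and their side of the threshold in every setting that gave them a value, apart from a fold limit. Copz2, one of these, has no value with at least 10 counts in every library, which removes it. The fit without a replicate block gave 14 higher and 14 lower, and the pairing changed the call of Sec22b alone. The median over all genes shifted by 0.104 (log2) with TMM factors taken without the 10 most counted genes, by 0.106 with at least 10 counts in every library and by 0.105 without mouse 3. The first of these called 5014 of all genes higher and 3865 lower, against 3956 and 4600, and 15 and 12 of the 43. There the COPI coat had 2 genes higher, Cope (0.18) and Copz2, and Copa (0.026), Copb1 (0.087) and Lman2 (0.021) turned positive. With at least 10 counts so did Copa (0.042), Copb1 (0.10), Copg2 (0.0052) and Lman2 (0.037), and 0 COPI coat genes were lower. This filter also ended the calls of Sec24d, Kdelr1, Sec22b and Copz1 and added Cope (edgeR adjusted p = 0.0038). Total counts turned Copg1 (-0.021) and Arf1 (-0.058) and added Sec24b (edgeR adjusted p = 0.00797) and Bet1 (0.00408) as lower, and no filter turned Arf1 (-0.0032) and added Bet1 (0.0052). At an adjusted p under 0.05, 2 COPI coat genes were lower. With a fold limit of 1 on the log2 scale, 5 of the 43 were higher and 3 lower, among them 0 and 1 of the COPII coat, 0 and 1 of the organisers, 0 lower of the COPI coat, and 4 and 0 of the receptors. Other pathway genes gave 9 and 5 there. Raw counts in place of counts per kilobase turned the Arf1 share (-1.93 points, from 2.09) and the Sec24d share (0.62 points, from -0.36).

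With each mouse left out, the counts were 14 in every case for genes higher and 11 to 16 for genes lower (11 without mouse 3), with 0 to 1 COPI coat genes lower. The log2 ratio of Sec24c and Sec24d over Sec24a and Sec24b ranged from 0.070 to 0.10, the Sec24d share from -1.67 to 0.40 points, and the log2 fold changes of Copa from -0.13 to 0.021, Copb1 from -0.063 to 0.087, Arf1 from -0.015 to 0.090 and Lman2 from -0.10 to 0.014. The calls on the other 6 paralog ratios did not change in any setting run. The depth limits Copz2, whose tdTom- level rests on 1 to 4 counts a library.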

Other observations

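Other Tmed and receptor genes, named here after their values were seen, did not all follow Tmed3, Tmed6 and Tmed9. Tmed4 was lower in tdTom+ at 113 ± 7.20 against 174 ± 29.1 CPM (SD, n = 8; log2 fold change -0.61 ± 0.07, edgeR adjusted p = 2.99e-06). Tmed8 was higher at 6.59 ± 1.37 against 1.93 ± 0.423 CPM (1.77 ± 0.12, edgeR adjusted p = 1.75e-08), and Tmed1 did not pass the test. The cornichon receptor Cnih1 was lower (-0.72 ± 0.07, edgeR adjusted p = 5.96e-07), as were Yif1a (-0.75 ± 0.05, edgeR adjusted p = 4.00e-08) and Rer1, which returns membrane proteins to the ER (-0.38 ± 0.05, edgeR adjusted p = 7.47e-06). Yif1b, the paralog of Yif1a, was higher (1.00 ± 0.10, edgeR adjusted p = 1.12e-06).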
